A study of Homo sapiens with 18 samples.

Results

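Decitabine combined with panobinostat was compared with panobinostat alone in U937, an established human line of monocytic lineage. The comparison used 6 of the 18 arrays of the series, chosen by their titles, with 3 arrays in each group. The groups used were decitabine plus panobinostat (D50P8), panobinostat (P8), decitabine (D50), untreated control (ctrl), decitabine plus valproic acid (D50V1) and valproic acid (V1), with n = 3 each. Decitabine was pulsed 3 times for 24 h each, and in the combinations the inhibitor joined the last pulse for 24 h. In P8 and V1 the inhibitor was also given for 24 h. All groups, controls included, grew in an RPMI medium with fetal calf serum. The labels attach the numbers 50, 8 and 1 to decitabine, panobinostat and valproic acid with no unit, so the inhibitor doses are not taken as matched. All cells are of 1 line, and no label states that replicate arrays are of separate cultures, so p-values measure the spread between these arrays, which may be technical.

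Decitabine, or 5-aza-2′-deoxycytidine, is built into DNA during replication, traps DNA methyltransferases there and so lowers cytosine methylation over successive divisions. Genes that are silenced by promoter methylation in most body cells, above all germline genes, are its best-known targets, and it is also known to raise transcripts of endogenous retroviruses that engage cytosolic RNA sensors and the interferon pathway. Panobinostat inhibits histone deacetylases, enzymes that take acetyl groups from histones and other proteins, and keeps chromatin acetylated. Valproic acid acts on the same enzyme family. Neither DNA methylation nor histone acetylation was measured on these arrays.

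The promoters below belong to 3 germline genes and a chemokine that were among the largest rises, and are shown because they differ in how many methylatable CG dinucleotides they hold. Each is 300 bases, from 250 before to 50 after the first listed gene start, in the gene's orientation, from RefSeq on GRCh38.p14, with every CG in capitals.
TKTL1 (chrX:154295545-154295844, plus strand): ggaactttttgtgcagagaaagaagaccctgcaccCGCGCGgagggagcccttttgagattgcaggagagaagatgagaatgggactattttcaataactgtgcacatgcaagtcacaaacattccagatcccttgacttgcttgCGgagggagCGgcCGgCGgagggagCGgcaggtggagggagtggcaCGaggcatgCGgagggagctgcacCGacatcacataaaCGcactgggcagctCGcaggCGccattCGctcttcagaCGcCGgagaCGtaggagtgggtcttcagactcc
GCNA (chrX:71578187-71578486, plus strand): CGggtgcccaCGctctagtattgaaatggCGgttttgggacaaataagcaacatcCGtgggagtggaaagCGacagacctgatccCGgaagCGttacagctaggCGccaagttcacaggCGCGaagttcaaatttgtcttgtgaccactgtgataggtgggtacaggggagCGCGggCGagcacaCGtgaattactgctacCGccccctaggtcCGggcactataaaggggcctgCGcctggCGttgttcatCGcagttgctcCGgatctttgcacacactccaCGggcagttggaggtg
MAEL (chr1:166975332-166975631, plus strand): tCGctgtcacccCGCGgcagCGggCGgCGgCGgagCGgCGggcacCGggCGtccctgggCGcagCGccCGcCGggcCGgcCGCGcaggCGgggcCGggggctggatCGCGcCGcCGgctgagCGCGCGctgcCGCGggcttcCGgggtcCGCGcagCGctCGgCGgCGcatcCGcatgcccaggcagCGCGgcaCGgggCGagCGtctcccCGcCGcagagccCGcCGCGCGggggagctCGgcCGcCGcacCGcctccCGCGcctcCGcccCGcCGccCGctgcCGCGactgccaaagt
CXCL11 (chr4:76036021-76036320, minus strand): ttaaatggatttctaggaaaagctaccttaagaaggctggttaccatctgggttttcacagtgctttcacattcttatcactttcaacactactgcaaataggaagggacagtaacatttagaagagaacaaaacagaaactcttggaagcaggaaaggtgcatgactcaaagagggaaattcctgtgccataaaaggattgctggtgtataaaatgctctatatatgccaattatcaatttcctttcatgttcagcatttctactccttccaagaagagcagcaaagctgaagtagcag
The number of CG dinucleotides was 18 in the TKTL1 window, 21 in GCNA, 60 in MAEL and 0 in CXCL11. TKTL1 and MAEL each have 2 listed starts, and only the first was read.

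Over the 10740 tested genes with a promoter in the table, the median window held 23 CG. The 224 genes that rose at least 2-fold had a median of 19, the 73 that fell at least 2-fold had 20, and the 9662 genes that did not pass the test had 23. Among genes whose panobinostat mean lay under the table's median, the medians were 14.5 for the 72 that rose at least 2-fold and 11 for the 3305 that did not pass. These counts describe the windows and say nothing of their methylation.

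The 48226 probe sets of the deposited table had log2 signals between 2.29 and 14.57, and array medians lay between 3.81 and 3.87. Of these, 16098 carried 1 gene symbol and were tested together. A probe set or gene is said to be called, higher or lower, where limma's Benjamini-Hochberg adjusted p over those 16098 was under 0.05, and each gene is given by its probe set with the highest mean. Within D50P8 and within P8, arrays correlated at 0.988 to 0.991, and between these groups at 0.974 to 0.98. Of the 10 markers taken to define the line's lineage, 8 were on a named probe set, and panobinostat means ran from 5.47 for AZU1 to 11.55 for MPO. On the first principal component, which held 33.8% of the variance, the D50P8 arrays lay between 33.5 and 37.5 and the P8 arrays between -11 and -6.2. Replicate 1 of D50V1 stood apart from its group at 12.4, against 24.8 and 31.2 for the other D50V1 arrays.

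With decitabine added to panobinostat more genes were called higher than lower, and nearly all changes of at least 4-fold were rises. Of 16098 probe sets, 1460 (9.07%) were called, 841 of them higher (5.22%) and 619 lower (3.85%). By gene, 1399 of 14884 (9.40%) were called, 799 higher (5.37%) and 600 lower (4.03%). With at least a 2-fold change there were 318 higher (2.14%) and 94 lower (0.632%), with at least 4-fold 75 higher and 2 lower, and with at least 8-fold 23 higher and 0 lower. The median change over all genes was -0.01 on the log2 scale, that of called higher genes 0.87 and that of called lower genes -0.69. The 3 D50P8 arrays lay entirely above or below the 3 P8 arrays for 1382 of the called genes (9.29% of all genes), and for 3703 genes (24.9%) with or without a call. In these extracts of whole cultures, more cells expressing a gene and more RNA per cell cannot be told apart. Leaving out replicate 1 of P8 lowered the number of called probe sets to 934.

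Of the 318 genes higher by at least 2-fold, 106 (33.3%) had a panobinostat mean under the table's median of 3.84, a share close to the 36.8% of all genes that lay under that level. Protein-coding genes were called at 10.8% of 11916, with 726 higher and 558 lower. Long noncoding RNAs were called at 5.36% of 1398 and microRNA genes at 1.21% of 1072. On the X chromosome 8.44% of 569 genes were called, 27 higher and 21 lower.

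TKTL1, a testis gene related to the sugar-phosphate enzyme transketolase, rose most. It had log2 signals of 9.56, 8.96 and 9.49 in the D50P8 arrays, against 3.3, 3.44 and 3.26 in the P8 arrays. All D50P8 arrays were high and all P8 arrays sat at the low end of the scale. The change was 6.01 on the log2 scale (SE 0.34), or 64.3-fold, with a limma adjusted p of 1.25e-08. The gene lies at chrX:154295795-154330350 on GRCh38.p14, and its promoter is printed above.

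DCAF4L1, a DCAF4-like gene of the WD-repeat family, had signals of 8.95, 8.68 and 8.5 in D50P8, against 3.55, 3.38 and 3.93 in P8. The groups were far apart, and the change was 5.09 (SE 0.17), or 34.1-fold, with adjusted p = 1.39e-11. PRAC1, a small nuclear protein known from prostate and colon, rose by 4.85 (SE 0.25), or 28.9-fold. BCAS1, known from amplified breast cancer regions and from myelin-forming cells, had 7.36, 7.16 and 7.84 in D50P8, against 3.34, 3.22 and 3.39 in P8. Its change was 4.13 (SE 0.36). The synaptic vesicle glycoprotein SV2A rose by 4.13 (SE 0.25) and the neuronal membrane protein NRN1 by 3.27 (SE 0.26). DHRS2, a short-chain dehydrogenase, had 8.38, 7.98 and 8.1 in D50P8, against 4.72, 5 and 5.1 in P8, a change of 3.21 (SE 0.44) with adjusted p = 0.000196. For all 15 of the largest rises among protein-coding genes the arrays did not overlap, as the rule for naming them required.

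**Figure D1:**
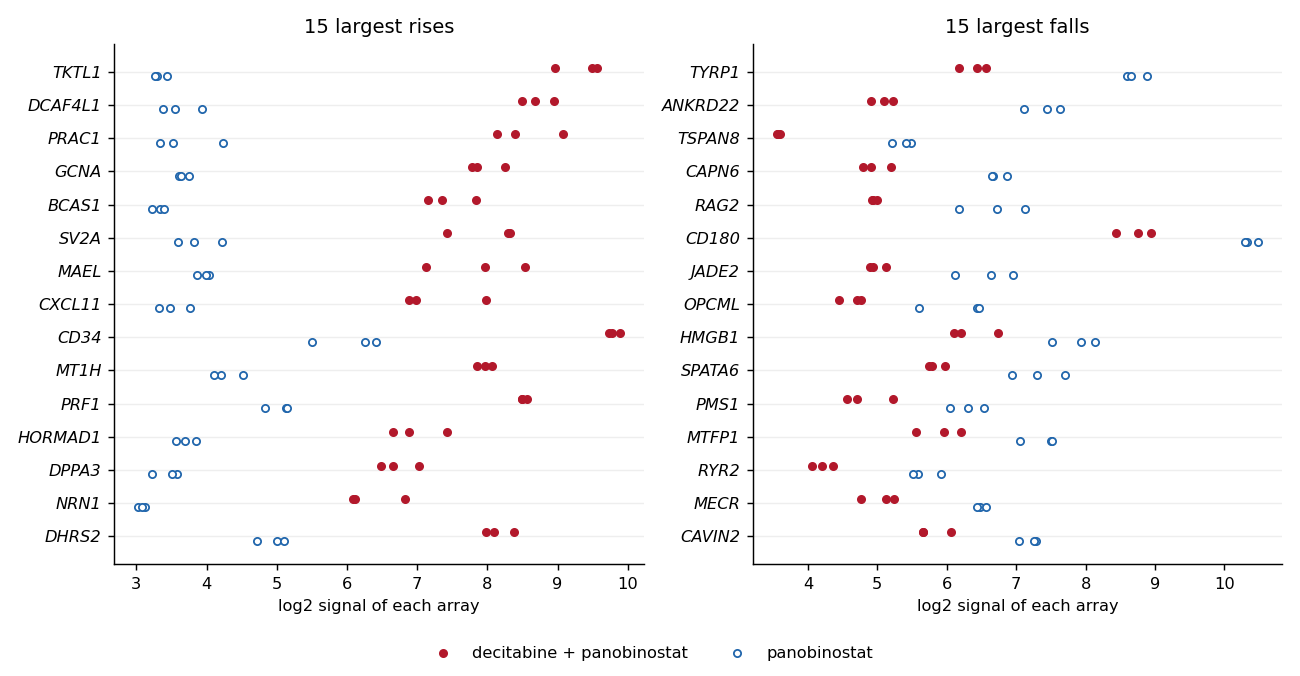
Log2 signal of each array (horizontal axis) for the 15 largest rises (left) and 15 largest falls (right) among called protein-coding genes, in decitabine plus panobinostat (filled red) and panobinostat (open blue). In the left panel every red point lies right of its gene's blue points and most blue points lie between 3 and 5. In the right panel the gaps are smaller, the largest being those of TYRP1 and ANKRD22.

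Many germline genes, which act in meiosis, in germ cell identity and in silencing transposons through small RNAs, rose. Of 24 measured, 12 were called higher, 0 lower and 12 were not called, with a median change of 0.44, against 5.37% of all genes higher and a median of -0.01. GCNA, a nuclear protein of germ cells, had signals of 8.25, 7.78 and 7.86 in D50P8, against 3.61, 3.63 and 3.75 in P8. That is a change of 4.3 (SE 0.21), or 19.7-fold. MAEL, of the transposon-silencing pathway, had 8.54, 7.13 and 7.97 in D50P8, against 3.86, 4.04 and 3.99 in P8. Replicate 2 was the lowest of the D50P8 arrays, still well above every P8 array, and the change was 3.91 (SE 0.25).

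HORMAD1, which marks meiotic chromosome axes, rose by 3.28 (SE 0.25), and DAZL, an RNA-binding protein needed for germ cells, by 3.16 (SE 0.22). The meiotic cohesin STAG3 rose by 1.77, TEX14, a protein of the bridges between germ cells, by 1.76, and TEX11, which acts in chromosome synapsis, by 1.38. PIWIL2, a small-RNA-guided protein, rose by 1.07, SYCP3 of the synaptonemal complex by 0.91, TDRD9 by 0.84 and RNF17 by 0.48. The D50P8 and P8 arrays of these genes did not overlap. DDX4, a helicase of the same germ cell compartment, changed by 0.04 and PIWIL1 by -0.26, neither called. With decitabine alone 10 of the 24 were called higher and the median change was 0.37, and with decitabine added to valproic acid 10 were called higher with a median of 0.34.

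DPPA3, which guards DNA methylation in the egg and early embryo, was outside that list and among the largest rises. Its signals were 7.02, 6.65 and 6.49 in D50P8, against 3.58, 3.51 and 3.23 in P8, a change of 3.28 (SE 0.24). Cancer-testis antigens are germline proteins also made by tumours. Of 5 measured, 3 were called higher, against 5.37% of all genes, and the median change was 0.97. PRAME had 8.55, 8.7 and 9.04 in D50P8, against 6.35, 6.57 and 6.13 in P8, a change of 2.42 (SE 0.23). CTAG1A rose by 1.57 and GAGE2A by 0.97, but the probes do not tell these from their near-identical copies. Of 11 imprinted genes 3 were called higher, where 5.37% of all genes were. PEG10, a paternally expressed gene derived from a retrotransposon, had 7.32, 7.06 and 6.94 in D50P8, against 4.48, 3.85 and 4.26 in P8, a change of 2.91 (SE 0.18). MEG3 rose by 1.31 and KCNQ1OT1 by 0.36 (adjusted p = 0.0369). The KCNQ1OT1 call was lost in 9 alternatives, with adjusted p between 0.052 and 0.231.

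**Figure D2:**
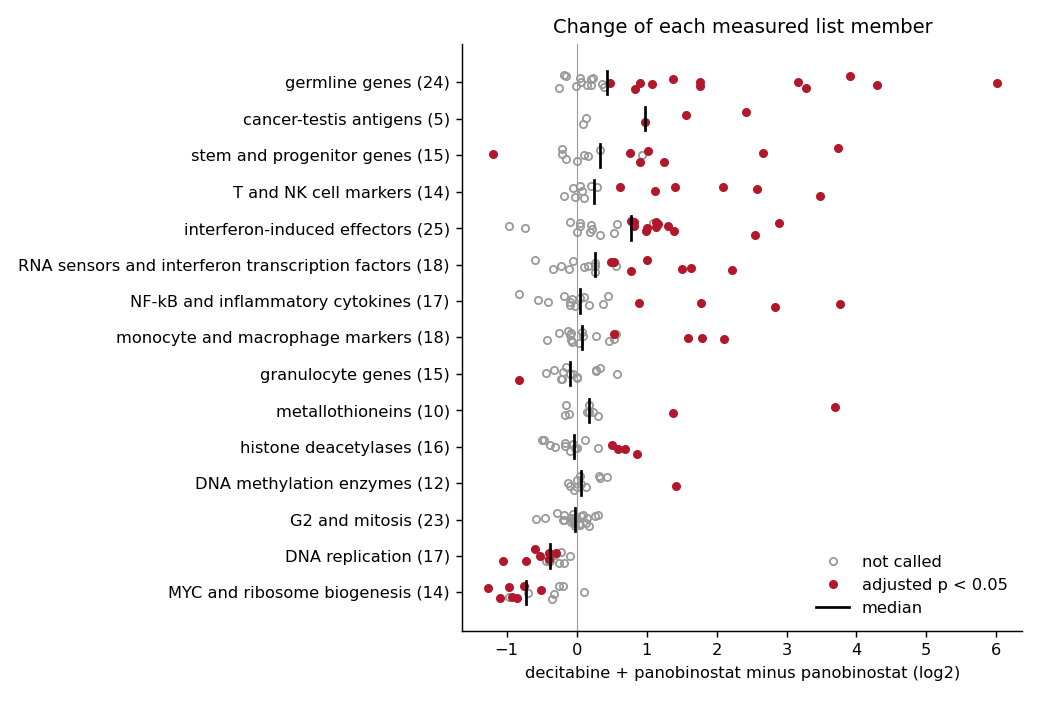
Decitabine plus panobinostat minus panobinostat (horizontal axis, log2) for every measured member of 15 gene lists, with list size in parentheses. Filled red points were called, open points were not, and black bars are list medians. Germline genes spread to the right up to 6.01, while all members of the DNA replication list lie left of 0.

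A share of interferon pathway genes rose, at the level of sensors, transcription factors and effectors. Of 18 RNA sensors and interferon transcription factors 7 were called higher, against 5.37% of all genes, and 0 lower, with a median of 0.26. RIGI, which detects RNA with triphosphate ends, had 10.1, 9.78 and 9.85 in D50P8, against 8.35, 8.32 and 8.56 in P8. The groups were separate, with a change of 1.5 (SE 0.16) and adjusted p = 1.04e-05. IFIH1, the sensor of long double-stranded RNA, had 7.3, 7.13 and 7.16 in D50P8, against 6.22, 6.37 and 5.96 in P8, a change of 1.01 (SE 0.2). DHX58, which modulates both sensors, rose by 0.78, the signalling kinase TBK1 by 0.54 and the RNA-activated kinase EIF2AK2 by 0.49. IRF9, the DNA-binding part of the factor that type I interferon activates, had 8.03, 7.24 and 7.35 in D50P8, against 4.71, 6.13 and 5.12 in P8. The P8 arrays varied more than the D50P8 arrays and still lay below them, with a change of 2.22 (SE 0.3). IRF7, which amplifies interferon transcription, rose by 1.63 (SE 0.26). Without replicate 3 of D50P8 the count of called members was 4, and it was also 4 in a fit of the 6 arrays alone.

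Among 25 measured interferon-induced effectors 12 were called higher, against 5.37% of all genes, 0 lower and 13 were not called, with a median of 0.78. IFI44L had 6.97, 5.93 and 7.1 in D50P8, against 3.71, 3.85 and 3.76 in P8, a change of 2.89 (SE 0.26) or 7.43-fold. Its D50P8 replicate 2 lay below the other two but far above P8. IFIT5, an RNA-binding antiviral protein, had 8.92, 8.57 and 8.37 in D50P8, against 6.14, 6.73 and 5.33 in P8, a change of 2.55 (SE 0.35). ISG15, a ubiquitin-like modifier, had 6.9, 6.01 and 6.64 in D50P8, against 5.53, 4.86 and 4.99 in P8, a change of 1.39 (SE 0.25). USP18, which removes ISG15 from proteins, rose by 1.3 (SE 0.18).

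The remaining called effectors were OASL at 1.16, XAF1 and SAMD9 at 1.14 each, IFIT2 at 1.01, IFIT3 at 0.99, IFITM3 and IFI35 at 0.82 each and RSAD2 at 0.78. They act against viruses by binding RNA, by blocking entry or translation, or in cell death. IFIT1, at 1.09 with adjusted p = 0.118, did not pass, and its P8 arrays spread from 4.61 to 6.01. MX2 at -0.97, IFITM2 at -0.74 and BST2 at 0.22 were not called either. With decitabine alone 7 of the 25 effectors were called higher with a median of 0.2, and in addition to valproic acid 7 with a median of 0.13.

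The windows below, from 3 of the effector promoters with the largest rises, hold a motif of interferon response elements. GAAANNGAAA was searched on both strands, where it reads TTTCNNTTTC on the other, with overlapping matches joined, and matches are in capitals (RefSeq, GRCh38.p14).
IFI44L (chr1:78620355-78620404, plus strand): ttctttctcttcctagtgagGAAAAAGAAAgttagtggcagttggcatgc
IFIT5 (chr10:89414544-89414593, plus strand): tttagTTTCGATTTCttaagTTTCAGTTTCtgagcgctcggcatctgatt
ISG15 (chr1:1013370-1013419, plus strand): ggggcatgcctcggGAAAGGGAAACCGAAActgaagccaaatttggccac
The motif was in 3.57% of all 35116 promoter windows and in 2.94% of the 10740 tested genes, with 1 window each. It was in 6 of the 9 called effectors and 7 of the 9 effectors not called that had a window. Its presence therefore did not separate called from uncalled members.

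**Figure D3:**
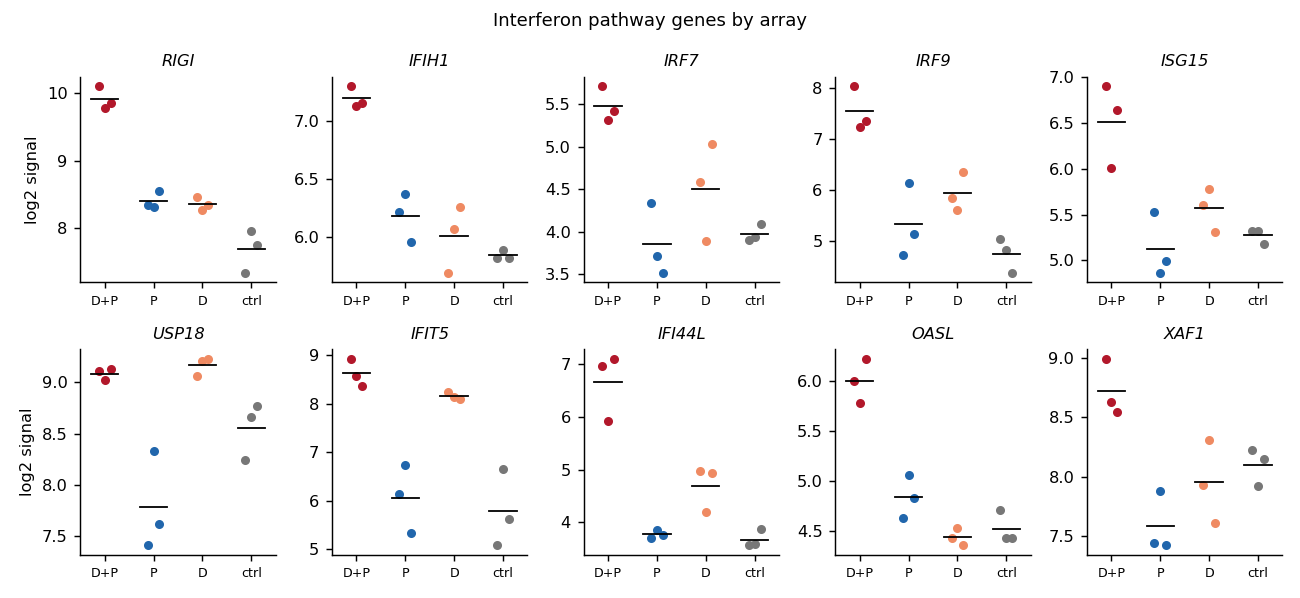
Log2 signal of each array (vertical axis, a separate scale per gene) for 10 interferon pathway genes in decitabine plus panobinostat (D+P), panobinostat (P), decitabine (D) and control (ctrl), with group means as bars. All D+P points lie above all P points for each gene. For USP18 and IFIT5 the decitabine arrays are close to or level with D+P, whereas for RIGI, OASL and XAF1 they stay near or below the panobinostat or control arrays.

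Chemokines and inflammatory genes changed in a few members. Of 17 genes of the NF-kB and cytokine list 4 were called higher, against 5.37% of all genes, 0 lower, and the median was 0.04. CXCL11, an interferon-inducible ligand of CXCR3, had 7.98, 6.99 and 6.89 in D50P8, against 3.32, 3.76 and 3.48 in P8. Replicate 1 was the highest D50P8 array and the groups were far apart, with a change of 3.76 (SE 0.31), or 13.6-fold, and adjusted p = 8.48e-07. CCL1, a chemokine for CCR8, rose by 2.84 (SE 0.2), the prostaglandin synthase PTGS2 by 1.78 (SE 0.28) and TNF by 0.89 (SE 0.17). CXCL10 changed by 0.18 and CXCL8 by -0.82, neither called.

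Blood lineage markers moved in several directions at once. Of 15 stem and progenitor genes 6 were called higher, against 5.37% of all genes, and 1 lower, with a median of 0.33. CD34, a surface glycoprotein of stem and progenitor cells, had 9.89, 9.73 and 9.77 in D50P8, against 6.42, 6.26 and 5.5 in P8, a change of 3.74 (SE 0.28). The transcription factor GATA2 had 6.31, 6.4 and 6.3 in D50P8, against 3.29, 3.92 and 3.79 in P8, a change of 2.67 (SE 0.24). RUNX1 rose by 1.25, ERG by 1.02, PROM1 by 0.9 and MECOM by 0.76. CD38, an enzyme that appears as progenitors mature, fell to 8.46, 8.1 and 7.74 in D50P8, against 9.34, 9.35 and 9.19 in P8, a change of -1.19 (SE 0.22). The RUNX1 call was lost in 6 alternatives, with adjusted p up to 0.163.

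Monocyte and macrophage markers were mostly not called, with 4 of 18 higher, against 5.37% of all genes, 0 lower and a median of 0.08. TREM1, an activating receptor, had 7.02, 7.01 and 7 in D50P8, against 4.93, 4.93 and 4.84 in P8, a change of 2.11 (SE 0.18). The endosomal glycoprotein CD68 rose by 1.79 (SE 0.22) and TYROBP, the adaptor of TREM receptors, by 1.59 (SE 0.17). The chemokine receptor CCR2 rose by 0.53. CD14, the lipopolysaccharide co-receptor, was at the low end of the scale in both groups and changed by -0.09. CSF1R, the receptor for macrophage colony-stimulating factor, changed by 0.07 (SE 0.3), with overlapping arrays. The myeloid factor SPI1 changed by -0.26 (SE 0.23), and CEBPA was on no named probe set. Of 15 granulocyte genes 0 were called higher and only CSF3R lower, at -0.83, where 9.40% of all genes were called. The CSF3R call was lost with some arrays left out, with limma's adjusted p up to 0.0984. MPO changed by -0.2 (SE 0.14).

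Markers of other lineages also rose, although the culture is 1 cell line. Of 14 T and NK cell markers 6 were called higher, against 5.37% of all genes, with a median of 0.25. PRF1, the pore-forming protein of cytotoxic cells, had 8.5, 8.56 and 8.5 in D50P8, against 5.13, 4.84 and 5.14 in P8, a change of 3.48 (SE 0.26). The T cell signalling proteins LAT and LCK rose by 2.58 (SE 0.21) and 2.09 (SE 0.19), CD2 by 1.4, CD5 by 1.12 and GZMM by 0.62. CD8A changed by -0.05, CD247 by -0.02 and NKG7 by -0.18, none called. Of 11 B cell markers CD24 alone was called, at 1.89 (SE 0.14), where 9.40% of all genes were called. Of 12 genes listed as epithelial and stromal markers 3 were called higher, against 5.37% of all genes. They were PECAM1 at 1.71, CLDN7 at 1.06 and EPCAM at 0.74. PECAM1 is not particular to those tissues and is not taken here as a sign of another lineage. The CLDN7 arrays overlapped, and the CLDN7 and EPCAM calls were each lost in some alternatives. The epithelial and stromal count was 1 without replicate 3 of D50P8 or without replicate 1 of P8. KLF1, an erythroid factor, fell by 0.67 and was the only call among 5 erythroid genes, where 9.40% of all genes were called.

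Several growth genes fell. In the list of MYC and ribosome assembly genes, 7 of 14 were called lower, 0 higher, with a median of -0.72, against 4.03% of all genes called lower. MYC, a transcription factor that drives growth, had 9.19, 9.32 and 8.76 in D50P8, against 9.99, 9.85 and 10.18 in P8, a change of -0.92 (SE 0.22) and adjusted p = 0.0139, which was 0.0714 without replicate 3 of D50P8 and 0.0594 without replicate 3 of P8. NOP16, a nucleolar protein, fell by 1.27, RRS1 and WDR43, of ribosome assembly, by 1.09 and 0.97, and NOLC1, WDR12 and NIP7 by 0.86, 0.75 and 0.51. The count was 3 without replicate 3 of D50P8 and 4 without replicate 1 of D50P8 or of P8. With decitabine alone 2 of the 14 were called lower with a median of -0.46, and for 0 of the 14 was the difference between the changes called.

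Several genes of DNA replication fell by less. Of 17 measured 7 were called lower, against 4.03% of all genes, and 0 higher. All 17 changes were below 0, with a median of -0.38, against 0 with decitabine alone and -0.01 in addition to valproic acid. For 0 of the 17 was the difference from decitabine alone called, and 0 of all genes differed from addition to valproic acid. GINS3, of the replicative helicase, had 6.06, 6.44 and 6.74 in D50P8, against 7.65, 7.58 and 7.16 in P8, a change of -1.05 (SE 0.2). TYMS, which makes thymidylate, fell by 0.73, the helicase subunit CDC45 by 0.59 and GINS2 by 0.53. FEN1 fell by 0.4, MCM10 by 0.39 and PCNA, the sliding clamp, by 0.29. The count was 3 without replicate 1 or 2 of D50P8, 4 without any 1 of the P8 arrays, and 2 in a fit of the 6 arrays alone. RRM2, the ribonucleotide reductase subunit that supplies deoxynucleotides, fell to 8.57, 9.09 and 8.61 in D50P8, against 9.46, 9.57 and 9.48 in P8. It was the only call among 6 genes of decitabine uptake and activation, where 9.40% of all genes were called. In contrast 0 of 23 genes of G2 and mitosis were called, by limma's adjusted p, with a median of -0.02 and 4 at an unadjusted p under 0.05, which 21.6% of all genes had.

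Among targets of the drugs, the maintenance methyltransferase DNMT1 changed by -0.13 (SE 0.11) and DNMT3A by 0.32 (SE 0.35), neither called. DNMT3B, which sets new methylation, had 7.82, 8.42 and 8.45 in D50P8, against 6.62, 6.88 and 6.94 in P8, a change of 1.42 (SE 0.19). It was the only call among 12 DNA methylation enzymes and readers, where 9.40% of all genes were called. HDAC1, HDAC2, HDAC3 and HDAC6 changed by 0.12, -0.38, -0.05 and 0.3, none called. The list of 16 deacetylases also holds sirtuins, which are not taken here as targets of either inhibitor. In it 4 were called higher, against 5.37% of all genes: SIRT7 at 0.86, HDAC5 at 0.69, HDAC11 at 0.59 and SIRT1 at 0.5. That count was 1 without replicate 1 of P8 and 2 without replicate 2 of D50P8 or of P8.

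Cell death and stress genes moved singly, where 9.40% of all genes were called. TP53INP1, a p53 target of cell cycle arrest and autophagy, had 6.95, 5.39 and 6.79 in D50P8, against 4.02, 3.87 and 3.83 in P8, a change of 2.47 (SE 0.39). It and SESN2, at 0.83 with its call lost in 8 alternatives, were the 2 called of 7 cell cycle inhibitors and p53 targets. Among 14 BCL2 family and death receptor genes, the pro-death members BIK and BMF rose by 1.49 and 1.09 and the survival gene BCL2 fell by 0.38. Each lost the call with some array left out. MT1H, a metal-binding metallothionein, had 7.96, 8.06 and 7.86 in D50P8, against 4.2, 4.52 and 4.1 in P8, a change of 3.69 (SE 0.17), and MT1E rose by 1.38, the only calls among 10 metallothioneins, whose near-identical copies probes may not tell apart. Of 12 lysosomal genes PSAP, CTSZ, CTSD and LAMP1 were called higher, by 0.65, 0.52, 0.48 and 0.44, with a list median of 0.4, but only 1 of the list without replicate 1 of P8 and 2 without replicate 1 or 3 of D50P8.

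The falls outside these groups were smaller than the rises. TYRP1, a melanin synthesis enzyme, had 6.17, 6.56 and 6.44 in D50P8, against 8.59, 8.89 and 8.65 in P8, a change of -2.32 (SE 0.16) and adjusted p = 1.4e-07. ANKRD22, an ankyrin repeat protein, had 5.23, 5.09 and 4.91 in D50P8, against 7.63, 7.44 and 7.11 in P8, a change of -2.32 (SE 0.39). The tetraspanin TSPAN8 had 3.55, 3.59 and 3.56 in D50P8, at the low end of the scale, against 5.21, 5.48 and 5.41 in P8, a change of -1.8 (SE 0.14). The calpain family member CAPN6 fell by 1.77, RAG2, of antigen receptor recombination, by 1.72 and CD180, a Toll-like receptor homologue, by 1.66. The chromatin proteins JADE2 and HMGB1 fell by 1.58 and 1.51, the second with its call lost in 4 alternatives and with many near-identical gene copies. The other named falls lay between -1.53 and -1.41. They were OPCML, SPATA6, the mismatch repair gene PMS1, the mitochondrial genes MTFP1 and MECR, the calcium channel RYR2 and the caveolar protein CAVIN2. A fall from P8 is not always a fall from control. The ctrl, P8 and D50P8 means were 4.21, 6.73 and 4.96 for CAPN6 and 5.69, 7.2 and 5.79 for CAVIN2. They were 7.99, 6.57 and 4.99 for JADE2 and 7.92, 7.36 and 5.9 for MTFP1. These examples were picked after their values were seen.

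Of 1072 microRNA genes 13 were called (1.21%, against 9.40% of all genes), 5 higher and 8 lower. The probe sets do not tell a mature microRNA from its precursor or host transcript. Printed below are mature forms of 4 of them with known roles in blood cells, picked after their values were seen, with the seed (bases 2 to 8) in capitals (RefSeq, GRCh38.p14).
miR-223-3p (chrX:66018937-66018958): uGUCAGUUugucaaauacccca
miR-21-5p (chr17:59841273-59841294): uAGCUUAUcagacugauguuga
miR-155-5p (chr21:25573983-25574006): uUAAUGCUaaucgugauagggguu
miR-196b-5p (chr7:27169528-27169549): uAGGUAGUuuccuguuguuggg
The 4 seeds differ from each other. MIR223, a gene of myeloid differentiation, had 9.62, 9.31 and 9.04 in D50P8, against 8.79, 8.93 and 8.15 in P8, a change of 0.7 (SE 0.17). MIR21, widely raised in cancers, had 4.28, 3.8 and 3.94 in D50P8, against 3.36, 3.31 and 3.14 in P8, a change of 0.73 (SE 0.16). MIR155, of inflammatory activation, had 4.7, 4.89 and 4.52 in D50P8, against 5.07, 5.85 and 5.12 in P8, a change of -0.64 (SE 0.17). MIR196B, of the HOXA cluster, had 6.04, 6.07 and 6 in D50P8, against 6.96, 6.79 and 6.78 in P8, a change of -0.8 (SE 0.18). The arrays of all 4 were separate. The other called genes ran from 0.63 for MIR548V to 1.5 for MIR4525, and from -1.06 for MIR4521 to -0.46 for MIR5047.

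The addition of decitabine was also measured without an inhibitor and on top of valproic acid, in arrays that none of the 3 comparisons share. All 3 came from 1 fit of 18 arrays with a shared spread per probe set, so their calls are not independent. With decitabine alone 585 genes (3.93%) were called (16.6% at an unadjusted p under 0.05), 379 higher (2.55%) and 206 lower (1.38%). In addition to valproic acid 594 genes (3.99%) were called (15.9% at an unadjusted p under 0.05), 389 higher (2.61%) and 205 lower (1.38%). Of the 799 genes higher in addition to panobinostat, 696 (87.1%) changed upward with decitabine alone, where 48.6% of all genes did, and 228 were called higher there, which is 28.5% of the 799 and 60.2% of the 379. With valproic acid 756 (94.6%) went up, where 46.4% of all genes did, and 299 were called higher, 37.4% of the 799 and 76.9% of the 389. Of the 600 genes lower, 497 (82.8%) changed downward with decitabine alone, where 51.4% of all genes did, and 558 (93%) in addition to valproic acid, where 53.6% did. Among them 88 were called lower with decitabine alone (14.7% of the 600 and 42.7% of the 206) and 105 in addition to valproic acid (17.5% of the 600 and 51.2% of the 205). In all 3 backgrounds 157 genes were called higher and 45 lower.

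Across 14884 genes the change in addition to panobinostat correlated with that of decitabine alone at Pearson r = 0.583 and with that in addition to valproic acid at r = 0.716, or 0.73 without replicate 1 of D50V1, where genes are not independent replicates. The 318 genes higher by at least 2-fold had median changes of 1.44 in addition to panobinostat, 1.07 in addition to valproic acid and 0.72 with decitabine alone, but they were chosen by the first of these values. CD34 rose by 3.74 in addition to panobinostat and by 4.73 with decitabine alone, a difference of -0.99 (SE 0.4, adjusted p = 0.387).

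**Figure D4:**
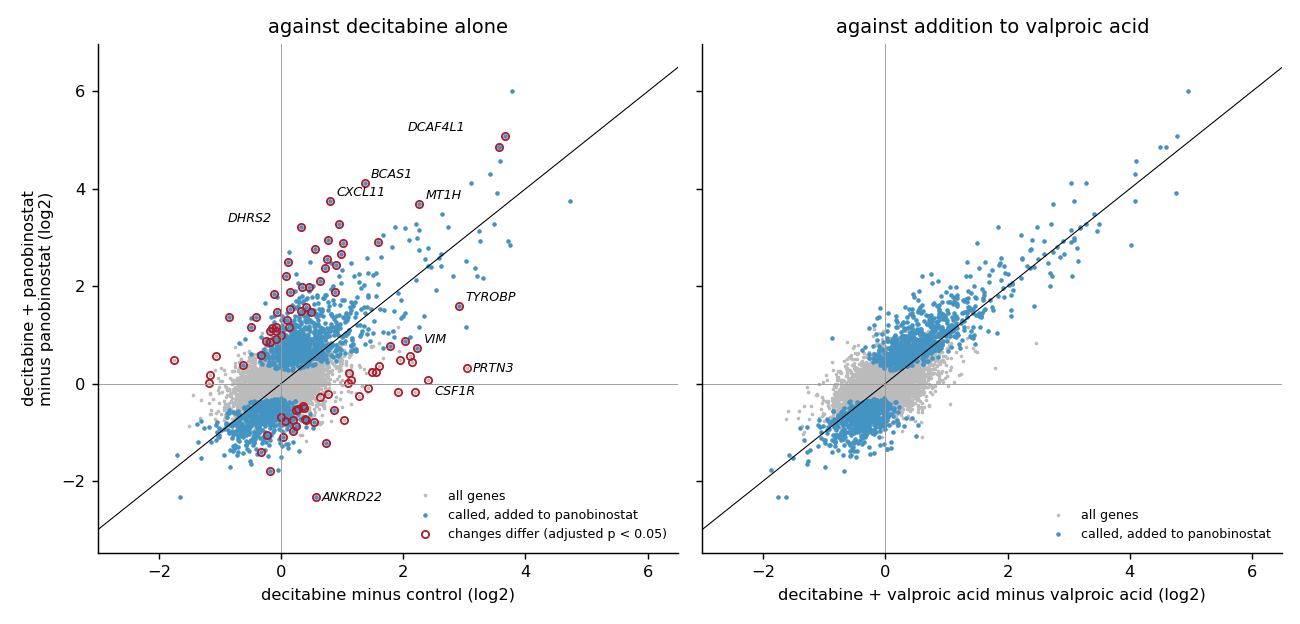
Change of each of 14884 genes in addition to panobinostat (vertical axis, log2) against the change with decitabine alone (left) and in addition to valproic acid (right). Grey points are all genes, blue points genes called in addition to panobinostat, red circles genes whose changes differ at adjusted p under 0.05, and the line marks equal changes. In the left panel CXCL11, DHRS2 and BCAS1 lie far above the line and CSF1R, PRTN3 and ANKRD22 far below it.

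The difference of the changes was tested directly. For 88 genes (0.591%) the change in addition to panobinostat differed from that with decitabine alone, positive for 47 (0.316%) and negative for 41 (0.275%). Of the 88, 66 were also called in addition to panobinostat: 43 rose and had a positive difference, 4 rose and had a negative one, and 19 fell and had a negative one. By probe set 89 (0.553%) were called, against 45 without replicate 3 of ctrl and 51 without replicate 2 of ctrl; over genes 10.5% had an unadjusted p under 0.05. Against addition to valproic acid 0 genes differed by limma's adjusted p (0.00%), with 997 (6.70%) at an unadjusted p under 0.05.

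CXCL11 had 5, 4.31 and 3.9 in D50, against 3.38, 3.86 and 3.56 in ctrl, a change of 0.8 that was not called (adjusted p = 0.201). The difference from its rise in addition to panobinostat was 2.96 (SE 0.44, adjusted p = 0.00499). DPPA3 had 4.95, 4.06 and 4.01 in D50, against 3.33, 3.52 and 3.35 in ctrl, and the difference was 2.35 (SE 0.35, adjusted p = 0.00499). TJP3, a tight junction scaffold, had 7.01, 7.09 and 7.7 in D50P8, against 4.68, 4.3 and 5.35 in P8, and 3.87, 4.13 and 4.26 in D50, against 3.98, 3.81 and 4.1 in ctrl. Its D50 and ctrl arrays overlapped, and the difference was 2.37 (SE 0.44, adjusted p = 0.0205). BCAS1 differed by 2.76 (SE 0.51, adjusted p = 0.0199) and DHRS2 by 2.89 (SE 0.62, adjusted p = 0.0464). The DHRS2 call was lost whichever of the 12 arrays was left out, and that of BCAS1 in 5 of 12 cases. Among interferon effectors 3 had a called difference: OASL by 1.24, XAF1 by 1.28 and IFI44L by 1.87. Those of XAF1 and IFI44L held for 2 and 3 of the 12 arrays left out, that of OASL for all 12.

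In the other direction, VIM, an intermediate filament protein, had 9.24, 9.41 and 8.78 in D50P8, against 8.39, 8.46 and 8.36 in P8, a rise of 0.74. In D50 it had 8.77, 8.63 and 8.82, against 6.71, 6.65 and 6.17 in ctrl, a rise of 2.23, and the difference was -1.49 (SE 0.22, adjusted p = 0.00499). BMP2, a secreted growth factor, had 7.54, 7.28 and 6.94 in D50P8, against 8.65, 8.7 and 8.06 in P8, and 6.96, 6.55 and 6.56 in D50, against 6.04, 5.77 and 6.07 in ctrl. It was called lower on panobinostat and higher without it, with a difference of -1.94 (SE 0.26, adjusted p = 0.00307). VNN1, a pantetheinase, likewise changed by -0.55 in addition to panobinostat and by 0.87 alone, with a difference of -1.43 (SE 0.22), although its call in addition to panobinostat was lost in 6 alternatives.

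Some myeloid genes that rose with decitabine alone were not called when it was added to panobinostat. CSF1R had 7.17, 6.23 and 6.86 in D50, against 4.66, 4.2 and 4.15 in ctrl, a rise of 2.41, while in addition to panobinostat it changed by 0.07. Its panobinostat arrays, at 6.59, 5.93 and 6.31, were already near the D50 arrays, and the difference was -2.34 (SE 0.42, adjusted p = 0.0164). PRTN3, a protease of neutrophil granules, had 7.69, 7.34 and 7.83 in D50, against 4.89, 4.26 and 4.59 in ctrl, a rise of 3.04. In D50P8 it had 4.22, 4.96 and 4.1, against 3.81, 3.85 and 4.65 in P8, and the difference was -2.71 (SE 0.39, adjusted p = 0.00454). The panobinostat arrays of PRTN3 sat at the low end of the scale with or without decitabine. CD86, a co-stimulatory ligand, had a difference of -1.55. TYROBP and TREM1, both called higher in addition to panobinostat, had differences of -1.32 and 1.48.

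**Figure D5:**
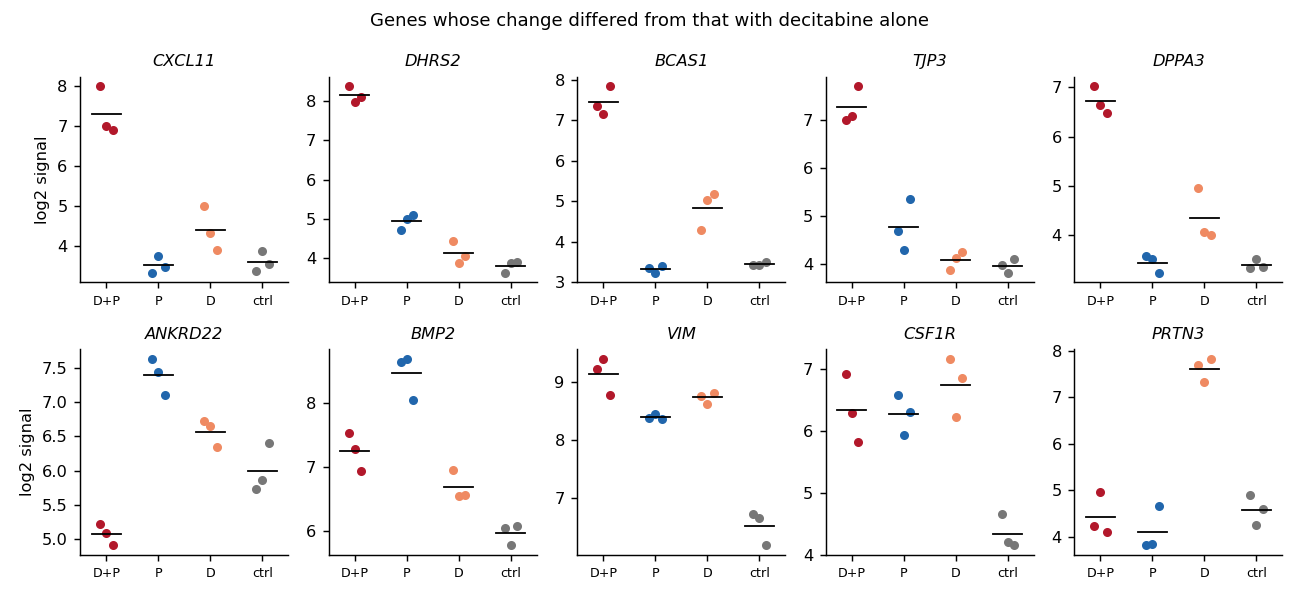
Log2 signal of each array (vertical axis, a separate scale per gene) for 10 genes with a called difference, in decitabine plus panobinostat (D+P), panobinostat (P), decitabine (D) and control (ctrl), with group means as bars. CXCL11, DHRS2, BCAS1, TJP3 and DPPA3 are high in the D+P arrays, ANKRD22 and BMP2 are highest in the P arrays, and PRTN3 is high in the D arrays.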

How the data were processed

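RNA of 18 U937 arrays (Affymetrix Human Gene 2.0 ST) in 6 groups of 3 was measured. The authors summarised the deposited log2 signals by RMA, per the submitters' processing notes, with no version given in the sources used here. TRIZOL and RNeasy columns yielded the RNA, which carried a biotin label, per the labels. No label names a batch, and arrays have no read depth, so their number limits the precision.

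Of 48226 probe sets, 16098 had 1 symbol in the array's annotation, all 16098 matched RefSeq by gene identifier, 0 had several symbols and 32128 had none. A gene stands for its probe set with the highest mean (14884 genes, 779 with several). In 87 of the 779 a probe set was called, in 19 all were, and in 0 did calls oppose. No level filter was used, and Y-linked genes and X-inactivation transcripts were not printed. Among the 16098 tested probe sets, 427 had values identical to another's.

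Group means were fitted with limma 3.58.1 (R 4.3.3) to all 18 arrays (12 residual degrees of freedom), with empirical Bayes and Benjamini-Hochberg adjustment over 16098. The code was tested on simulated data. Same-numbered arrays of the 2 groups had deviations correlating between -0.052 and 0.078, and 1 of 3 D50P8 arrays correlated best with its own number, so the numbers were not taken as pairs. Alternatives were other probe set choices, centring, repeated quantile normalization, a variance trend, array weights, a replicate block, the compared arrays alone and each array left out.

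Named are the 15 largest rises and falls among called protein-coding genes with separate arrays, up to 4 called members of each of 30 lists, the 5 largest called differences each way among genes also called in decitabine plus panobinostat against panobinostat, and 15 further genes. List members beyond these, other genes with a called difference and the RNA genes were named after their values were seen, and list counts with arrays left out were also added then. The members and lists were chosen with earlier results of these data known. Lists are given by counts and medians, and 29 of 30 had a measured member (histone genes had 0).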

Additional observations from a re-analysis of the deposited data

Results flagged for a closer look

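The changes of 20 named genes differed between the panobinostat background and decitabine alone, by the interaction term of the limma fit (adjusted p under 0.05). Differences are on the log2 scale, positive where the change in addition to panobinostat was the higher one. Each was refitted without each of the 12 arrays in turn, an alternative chosen after seeing the data. The call held in all 12 refits for CXCL11 (2.96), DPPA3 (2.35), TREM1 (1.48), MT1H (1.43), DCAF4L1 (1.42), VNN1 (-1.43), VIM (-1.49), TSPAN8 (-1.61) and BMP2 (-1.94). It held in 11 for TYROBP (-1.32), 9 for CSF1R (-2.34), 7 for BCAS1 (2.76), 6 for TJP3 (2.37) and 5 for ANKRD22 (-2.88) and CAVIN2 (-1.08). It held in 4 for PEG10 (1.32) and RRM2 (-0.95), 3 for IFI44L (1.87), 2 for CD24 (1.01) and 0 for DHRS2 (2.89), whose adjusted p reached 0.111. The direction was the same in every refit of these 20 genes.

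Probe sets without a gene symbol lay outside the comparisons. Of 32128 tested on their own, 1551 (4.83%) were called in decitabine plus panobinostat against panobinostat, 896 higher and 655 lower, and 350 were higher by at least 2-fold. What they measure is not named here.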

How the results depend on the processing

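Of 1542 values of named genes under alternatives, 1429 kept direction and call, 113 kept direction and lost the call, and 0 reversed. Of 93 called named genes, 68 kept the call under every alternative run, and it was lost at least once for HMGB1, HDAC5, HDAC11, SIRT1, KCNQ1OT1, CCR2, CSF3R, RUNX1, KLF1, CLDN7, EPCAM, NOP16, MYC, CDC45, GINS2, SESN2, BIK, BMF, BCL2, MT1E, CTSZ, CTSD, LAMP1, SQLE and VNN1. The 1460 calls in addition to panobinostat became 2899 over all 48226 probe sets, 964 with the 6 arrays alone and 934 to 1202 with an array left out (lowest without replicate 1 of P8), and 687 probe sets were called whichever of the 6 was left out. The 440 calls of at least 2-fold became 904 over all probe sets and 400 to 475 with an array left out. The share of calls that were higher ran from 52.8% to 63.1%, against 57.6%. Over all probe sets the calls were 1358 with decitabine alone (613 otherwise), 1295 in addition to valproic acid (625) and 222 for the difference from decitabine alone (89). The 6 arrays alone gave 265 calls in addition to valproic acid. With an array left out the calls were 357 to 477 for decitabine alone, lowest without ctrl replicate 2, with 376 without ctrl replicate 1 and 369 without D50 replicate 1. They were 394 to 583 in addition to valproic acid (394 and 406 without V1 replicates 3 and 2), 45 to 100 for the difference from decitabine alone, and 0 to 4 for the difference from addition to valproic acid (4 without D50V1 replicate 2, 1 without V1 replicate 2). Fewer arrays in a fit did not always give fewer calls. The difference from decitabine alone had 115 with only the arrays compared and 100 without D50P8 replicate 2, against 89. The causes of these shifts were not tested. With the replicate number as a block, 1486 probe sets were called in addition to panobinostat, and KCNQ1OT1 and LAMP1 lost their calls; the arrays share only a number. Changes near the low end of array signal are compressed, so folds of weak genes may be understated.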

Other observations

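Long noncoding RNAs, which had no gene list of their own, held some of the largest rises but were called less often than genes at large. Of 1398 tested, 52 were called higher and 23 lower, together 5.36%, against 9.40% of all genes. AFAP1-AS1, an antisense transcript of AFAP1, had 8.56, 8.59 and 8.53 in D50P8, against 3.96, 3.54 and 3.6 in P8, a change of 4.86 (SE 0.14). PROSER2-AS1 rose by 4.57, LINC00891 by 3.22 and BCAR3-AS1 by 3.21. MIR17HG, the host transcript of the miR-17-92 microRNAs, had 5.99, 6.46 and 5.87 in D50P8, against 7.67, 7.7 and 7.21 in P8, a change of -1.42 (SE 0.28), and the small nucleolar RNA host SNHG15 fell by 1.34. These 6 were picked after their values were seen.

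In some lists no gene was called, where 9.40% of all genes were. By limma's adjusted p 0 of 11 stress response genes were called (median -0.17, 4 at an unadjusted p under 0.05), 0 of 10 neuronal genes (-0.08, 2), 0 of 7 megakaryocyte and platelet genes (0.05, 2) and 0 of 1 measured gene of MHC class II presentation (-0.15, 0). ASNS, asparagine synthetase, changed by 0.57 in addition to panobinostat and by -1.06 with decitabine alone, a difference of 1.63 (SE 0.27, adjusted p = 0.00989). Of 11 cholesterol synthesis genes SQLE alone was called, higher by 0.33, and of 4 genes of MHC class I presentation ERAP2 alone, lower by 0.72. The SQLE call was lost in 6 alternatives and that of ERAP2 in none.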
